A study of Mus musculus with 16 samples.

Results

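The comparison set hemogenic endothelial cells (HE) against endothelial cells (EC) of the mouse embryo at embryonic day 9.5 (E9.5), with 2 RNA-seq libraries of each. HE were sorted as Runx1-GFP-positive, CD31-positive cells with low or no kit, and EC as Runx1-GFP-negative, CD31-positive, kit-negative cells. Surface CD41 and CD45 were gated out in both. The embryo region was the aorta-gonad-mesonephros, with some somite tissue and stretches of umbilical and vitelline vessel left on it, after head, heart and lung region, liver, gut tube, tail and limb buds were removed. All conceptuses, EC donors included, had superovulated B6C3F1 mothers and fathers homozygous for the Runx1-GFP allele (Runx1tm4Dow), so every conceptus carried 1 reporter allele from its father. The other groups of the study, used here for the spread between libraries and for side-by-side values, are HE and EC of the E10.5 embryo, the E9.5 yolk sac and the E10.5 yolk sac, each with 2 libraries and sorted with the same gates from the same cross. Genes entered the comparison when they reached an FPKM (mapped fragments of a gene, scaled for its transcript length and for all mapped fragments of the library) of at least 1 in at least 2 of the 4 E9.5 embryo libraries. That held for 12333 of the 33531 listed genes, against 13955 genes tested over all 16 libraries.

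Hemogenic endothelium is the part of the vessel wall from which the first blood stem and progenitor cells bud. The transcription factor Runx1 is required for this endothelial-to-hematopoietic transition, and its targets Gfi1 and Gfi1b silence endothelial genes by recruiting a histone demethylase complex. In the embryo the transition takes place mainly in the floor of the dorsal aorta and in the large arteries that join it, where Notch signalling also sets arterial identity.

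The summed FPKM of the 2 HE libraries was 586501 and 615308, against 658892 and 687286 in the 2 EC libraries. Read numbers are unknown from FPKM. The spacing of low values put the reads of the HE libraries at 0.871 to 0.933 times those of the EC libraries, with weak support. Across the 12333 genes, log2 values correlated with r = 0.976 between the HE libraries, 0.983 between the EC libraries and 0.962 to 0.972 between an HE and an EC library. The labels do not say whether replicates were separate litters or sorts. The p-values reflect only the spread within groups over the 16 libraries of the study, and that spread may be technical. The summed FPKM of the 21 erythroid genes in the table was 11280 and 6854 in HE, against 1973 and 10950 in EC, so EC replicate 1 stood apart from the other 3 libraries in red-cell RNA. Summed over 24 mesenchyme and somite genes the values were 2174 and 1678 in HE, against 1348 and 2819 in EC, with EC replicate 2 the highest. Liver and yolk sac endoderm transcripts split by replicate number instead: Apoa1, a lipoprotein gene, was at 1.44 and 20.1 FPKM in HE, against 3.37 and 22.3 FPKM in EC, and Afp, Rbp4 and Ttr had the same split.

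Differences are given as HE minus EC on the scale of log2(FPKM + 1) with their standard error (SE) from a limma fit to all 16 libraries, and adjusted p-values are Benjamini-Hochberg values over the 13955 tested genes. This scale understates the change of low genes. The SE and p-value of a gene draw on the spread in all 16 libraries. Replicates far apart in another group can therefore keep a gene from passing here. Conversely, a gene at or near 0 in the other groups gets a smaller SE and can pass more easily. Of the 12333 genes, 22 passed an adjusted p of 0.05 (0.178%), of which 20 were higher in HE (0.162%) and 2 lower (0.0162%). Without adjustment 1147 genes (9.3%) had a p under 0.05. Both HE libraries lay above both EC libraries with a difference of at least 1 in 165 genes (1.34%), and below them with a difference of -1 or less in 123 (0.997%). The 19 called rises with EC values above 0 had differences from 0.98 to 4.24, and the called genes lay mostly among low and middle expression levels.

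**Figure D1:**
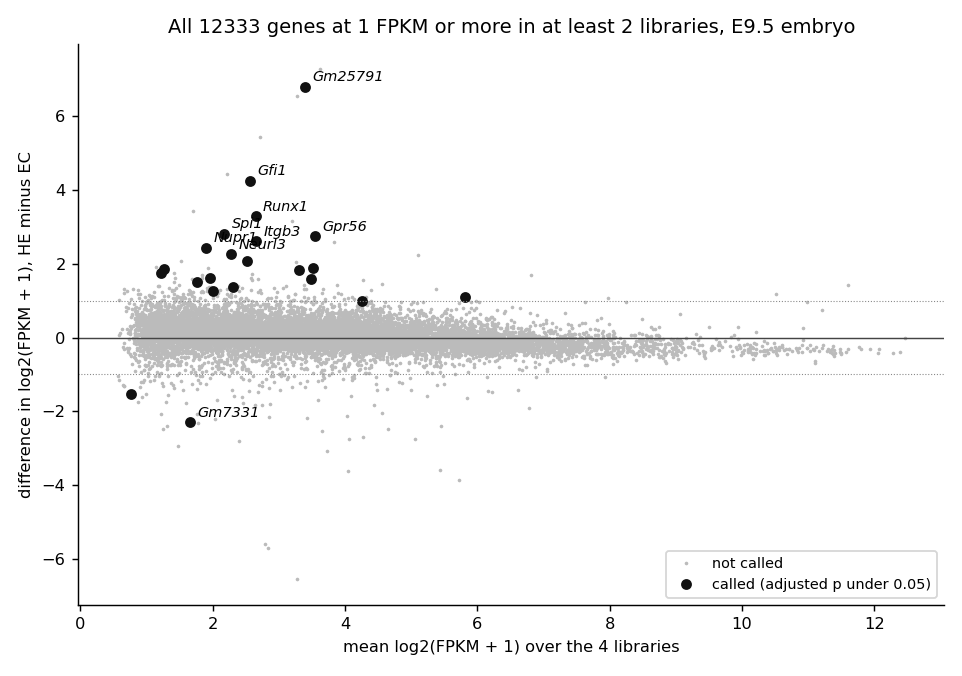
Difference between HE and EC in log2(FPKM + 1), HE minus EC, against the mean log2(FPKM + 1) over the 4 E9.5 embryo libraries, for all 12333 genes (grey) with the 22 called genes in black. Dotted lines stand at a difference of 1 and -1. Gm25791 and Gfi1 lie highest among the called genes, and 2 called genes lie below 0.

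The sort gene itself came first by adjusted p. Runx1 had 21.5 and 15.9 FPKM in HE, against 1.15 and 0.883 FPKM in EC. Its difference of 3.28 ± 0.21 (SE, n = 2 libraries per group) had an adjusted p of 5.665e-05 in limma's test. Both HE libraries were far above both EC libraries, in the direction of the GFP gate, and as the reporter was used to sort the cells, this checks the labels and is no finding. Pecam1, which encodes CD31, had 131 and 150 FPKM in HE, against 168 and 148 FPKM in EC, and the groups overlapped. Kit stood at 16.0 and 13.4 FPKM in HE, against 11.1 and 9.08 FPKM in EC (adjusted p = 0.706 by limma). Itga2b, which encodes CD41, stood at 16.8 and 13.4 FPKM in HE, against 9.61 and 7.54 FPKM in EC (adjusted p = 0.522 by limma), although both gates excluded surface CD41. Ptprc, which encodes CD45, did not reach the FPKM minimum.

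Next to Runx1 stood blood-forming regulators with low EC values. Gfi1, the zinc finger repressor that Runx1 activates in hemogenic endothelium, had 31.9 and 19.0 FPKM in HE, against 0.539 and 0.199 FPKM in EC. It rose by 4.24 ± 0.34 (adjusted p = 0.0002775, limma), the largest difference of a called protein-coding gene. Spi1, which encodes the myeloid and lymphoid factor PU.1, had 13.1 and 9.10 FPKM in HE, against 0.820 and 0.592 FPKM in EC (2.81 ± 0.35, adjusted p = 0.00656 by limma). In both genes every EC library was under 1 FPKM and every HE library above 9. Cebpb, a bZIP factor of myeloid cells and of inflammatory responses, had 20.8 and 16.2 FPKM in HE, against 4.0 and 7.44 FPKM in EC (1.57 ± 0.25, adjusted p = 0.0405 by limma). Bcl11a, a repressor known from lymphoid development and globin switching, had 5.41 and 4.0 FPKM in HE, against 1.07 and 0.966 FPKM in EC (1.49 ± 0.25, adjusted p = 0.0448 by limma). Without any 1 of EC replicate 1, EC replicate 2 or HE replicate 1, Spi1 no longer passed (adjusted p up to 0.12), while Runx1 and Gfi1 passed without each of the 16 libraries in turn.

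The start-site windows of the most strongly raised genes are printed here because these genes were higher together and Runx1, one of them, binds DNA at a known short motif. The sequences are from RefSeq (GRCm38.p6), a later build than the mm9 of the files, and run 5′ to 3′ on the gene's strand from 250 bases before to 50 bases after a start site. Capitals mark TGTGGT or TGCGGT, core RUNX motifs, on either strand. All windows that the RefSeq table holds for the 4 largest rises with an entry are shown; Gpr56 is listed there as Adgrg1. Gfi1 lies on chr5:107725756-107726055 and chr5:107724294-107724593 (minus strand), Runx1 on chr16:92826025-92826324, the distal start, and chr16:92697280-92697579, the proximal start (minus strand), Gpr56 on chr8:94976859-94977158 and chr8:94984149-94984448 (plus strand), and Nupr1 on chr7:126625421-126625720 (minus strand).
Gfi1, window 1: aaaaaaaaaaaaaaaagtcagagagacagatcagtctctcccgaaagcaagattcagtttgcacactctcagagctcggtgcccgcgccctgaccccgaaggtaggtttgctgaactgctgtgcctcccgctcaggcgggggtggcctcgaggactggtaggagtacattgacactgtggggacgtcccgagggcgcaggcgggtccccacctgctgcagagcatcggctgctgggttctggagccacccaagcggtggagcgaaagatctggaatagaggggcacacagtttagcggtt
Gfi1, window 2: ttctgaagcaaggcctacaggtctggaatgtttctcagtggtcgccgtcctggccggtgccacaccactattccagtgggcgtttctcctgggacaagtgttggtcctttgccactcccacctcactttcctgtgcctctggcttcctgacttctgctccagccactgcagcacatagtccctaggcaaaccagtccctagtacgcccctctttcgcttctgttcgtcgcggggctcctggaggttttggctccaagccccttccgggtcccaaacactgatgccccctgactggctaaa
Runx1, distal window: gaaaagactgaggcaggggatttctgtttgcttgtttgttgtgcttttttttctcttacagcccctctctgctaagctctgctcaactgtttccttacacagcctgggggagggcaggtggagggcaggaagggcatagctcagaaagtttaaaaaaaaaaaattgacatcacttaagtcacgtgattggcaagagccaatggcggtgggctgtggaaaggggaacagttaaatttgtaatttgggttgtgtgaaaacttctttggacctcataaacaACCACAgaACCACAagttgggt
Runx1, proximal window: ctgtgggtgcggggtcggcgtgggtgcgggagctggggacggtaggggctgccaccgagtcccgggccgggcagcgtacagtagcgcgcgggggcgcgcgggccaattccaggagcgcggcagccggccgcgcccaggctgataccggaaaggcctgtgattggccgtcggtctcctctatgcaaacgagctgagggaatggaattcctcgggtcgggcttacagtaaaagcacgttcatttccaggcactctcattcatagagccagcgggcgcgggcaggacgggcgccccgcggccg
Gpr56, window 1: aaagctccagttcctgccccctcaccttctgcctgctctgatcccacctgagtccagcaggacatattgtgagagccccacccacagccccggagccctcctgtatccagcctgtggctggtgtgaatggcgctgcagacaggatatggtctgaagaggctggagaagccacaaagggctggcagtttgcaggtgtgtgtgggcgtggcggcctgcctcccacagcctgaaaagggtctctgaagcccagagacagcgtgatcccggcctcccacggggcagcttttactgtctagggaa
Gpr56, window 2: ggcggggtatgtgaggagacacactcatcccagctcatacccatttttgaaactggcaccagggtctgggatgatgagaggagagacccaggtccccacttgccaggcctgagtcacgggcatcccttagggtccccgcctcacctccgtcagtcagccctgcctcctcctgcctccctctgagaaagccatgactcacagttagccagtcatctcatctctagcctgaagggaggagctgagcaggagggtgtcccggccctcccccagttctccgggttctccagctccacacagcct
Nupr1: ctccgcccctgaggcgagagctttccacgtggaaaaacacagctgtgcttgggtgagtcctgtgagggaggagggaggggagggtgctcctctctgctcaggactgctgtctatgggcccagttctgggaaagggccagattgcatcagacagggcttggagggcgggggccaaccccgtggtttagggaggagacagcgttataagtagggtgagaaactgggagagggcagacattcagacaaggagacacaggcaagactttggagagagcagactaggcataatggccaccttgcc
Among these 7 windows only the distal Runx1 window held the letters, with 2 matches whose first bases lie at +29 and +37 of the start site. Of the 20 called rises, 14 have a window in the table, 17 windows in all, and 5 windows (29.4%) held at least 1 RUNX match, against 22.4% of all 32851 windows. The other 4 were those of AI467606, Slc18a2, Was and Serpinf1. The GATA motif AGATAA, on either strand, was in 4 of the 17 windows, those of Neurl3, Art4, Slc18a2 and Serpinf1, against 11.2% of all windows. A match describes letters in these windows and says nothing about binding.

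Genes of the cell surface and of adhesion made up the next group of rises. Itgb3, the integrin β3 subunit that pairs with the αIIb chain on platelets and with αv in other cells, had 17.5 and 12.1 FPKM in HE, against 1.75 and 1.39 FPKM in EC (2.60 ± 0.28, adjusted p = 0.00359 by limma). Its partner chains did not pass: Itga2b is given above, and Itgav had 7.73 and 8.16 FPKM in HE, against 7.86 and 7.84 FPKM in EC. Itgb3 was the only called gene among 13 integrin genes, against 0.162% of all 12333 genes called higher. Of the 13, 6 (46.2%) lay above EC in both HE libraries and 3 (23.1%) below, against 31.2% and 27.2% of all genes. Gpr56, an adhesion G protein-coupled receptor expressed by blood stem cells, had 36.1 and 23.3 FPKM in HE, against 3.86 and 3.18 FPKM in EC (2.74 ± 0.36, adjusted p = 0.00904 by limma). Art4, an ADP-ribosyltransferase that carries a red-cell blood group in humans, had 11.8 and 9.72 FPKM in HE, against 1.87 and 1.68 FPKM in EC (2.08 ± 0.26, adjusted p = 0.00656 by limma). In each of these 3 genes both HE libraries lay far above both EC libraries.

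Secreted and signalling genes followed. Csf1, the macrophage colony-stimulating factor, had 22.8 and 19.2 FPKM in HE, against 5.11 and 4.73 FPKM in EC. Its difference of 1.89 ± 0.16 had an adjusted p of 0.00029 (limma), and it passed without each of the 16 libraries in turn, as Runx1 and Gfi1 did. Its receptor gene Csf1r did not reach the FPKM minimum in these 4 libraries. Serpinf1, a secreted serpin also known as pigment epithelium-derived factor, had 79.1 and 83.9 FPKM in HE, against 39.6 and 35.9 FPKM in EC (1.09 ± 0.17, adjusted p = 0.0255 by limma), the highest HE level among the called protein-coding genes. Dok2, a docking protein that dampens tyrosine kinase signalling in blood cells, had 6.23 and 5.39 FPKM in HE, against 0.998 and 1.47 FPKM in EC (1.61 ± 0.24, adjusted p = 0.0195 by limma). Was, the actin regulator lost in Wiskott-Aldrich syndrome, had 7.01 and 6.73 FPKM in HE, against 2.31 and 1.87 FPKM in EC (1.35 ± 0.20, adjusted p = 0.0195 by limma).

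The remaining called protein-coding genes have more varied roles. Nupr1, a small stress-induced nuclear protein, had 8.39 and 7.05 FPKM in HE, against 0.257 and 1.06 FPKM in EC (2.43 ± 0.33, adjusted p = 0.00951 by limma). Neurl3, which belongs to the neuralized family of ubiquitin ligases, had 11.4 and 7.98 FPKM in HE, against 1.36 and 1.10 FPKM in EC (2.25 ± 0.26, adjusted p = 0.00515 by limma). Both EC libraries stayed near 1 FPKM or under it in these genes. Slc18a2, the vesicular monoamine transporter, had 20.1 and 15.5 FPKM in HE, against 4.83 and 3.75 FPKM in EC (difference 1.82). AI467606 had 3.88 and 3.27 FPKM in HE, against 0.297 and 0.236 FPKM in EC (difference 1.85). Acrbp, which encodes a sperm acrosin-binding protein, had 5.13 and 5.33 FPKM in HE, against 1.27 and 1.97 FPKM in EC (difference 1.26), and Adck5, an aarF-domain kinase gene, 29.6 and 22.8 FPKM in HE, against 13.3 and 12.1 FPKM in EC (difference 0.98). Adjusted p-values of these last 4 genes by limma ran from 0.00515 to 0.0448.

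Of the 22 called genes, 4 are gene models whose values carry extra doubt. Gm25791, a small nucleolar RNA that lies within Taf1d on the same strand, had 107 and 110 FPKM in HE and was listed at 0 in both EC libraries (adjusted p = 0.00819, limma). Taf1d itself had 38.9 and 31.4 FPKM in HE, against 43.4 and 40.5 FPKM in EC. FPKM of so short a transcript can swing on few reads, and 37 small nucleolar RNAs among the 12333 genes ranged in difference from -6.54 to 7.25. Gm16764 is annotated antisense to Fgfr2 and Nkx1-2, and its 4.29 and 2.42 FPKM in HE, against 0.143 and 0.419 FPKM in EC, cannot be told apart from reads of those genes without strand. Nkx1-2 had 1.13 and 0.657 FPKM in HE, against 0.193 and 0.212 FPKM in EC. Fgfr2 had 23.9 and 23.9 FPKM in HE, against 18.1 and 21.4 FPKM in EC. Called protein-coding genes overlap opposite-strand genes too. Adck5 overlaps Cpsf1 (35.3 and 32.2 FPKM in HE, 33.1 and 29.3 in EC) and Cebpb overlaps Tmem189 (38.1 and 38.1 in HE, 32.8 and 33.6 in EC). Dok2 overlaps Xpo7 (7.46 and 7.14 in HE, 7.09 and 6.83 in EC). Gfi1 overlaps the transcript A430072P03Rik, which was also higher in HE at a low level (0.817 and 0.777 in HE, 0.136 and 0 in EC). Whether their reads enter the called values was not tested. Both called genes that fell, Gm17052 and Gm7331, are processed pseudogenes. Gm17052 was listed at 0 in both HE libraries, against 1.41 and 2.42 FPKM in EC, and Gm7331 had 0.192 and 0.699 FPKM in HE, against 8.38 and 4.13 FPKM in EC. Outside the E9.5 embryo Gm17052 was at 0 throughout, which lowers its SE. Gm16764, Gm17052 and Gm7331 did not pass in a fit of the 4 E9.5 embryo libraries alone.

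**Figure D2:**
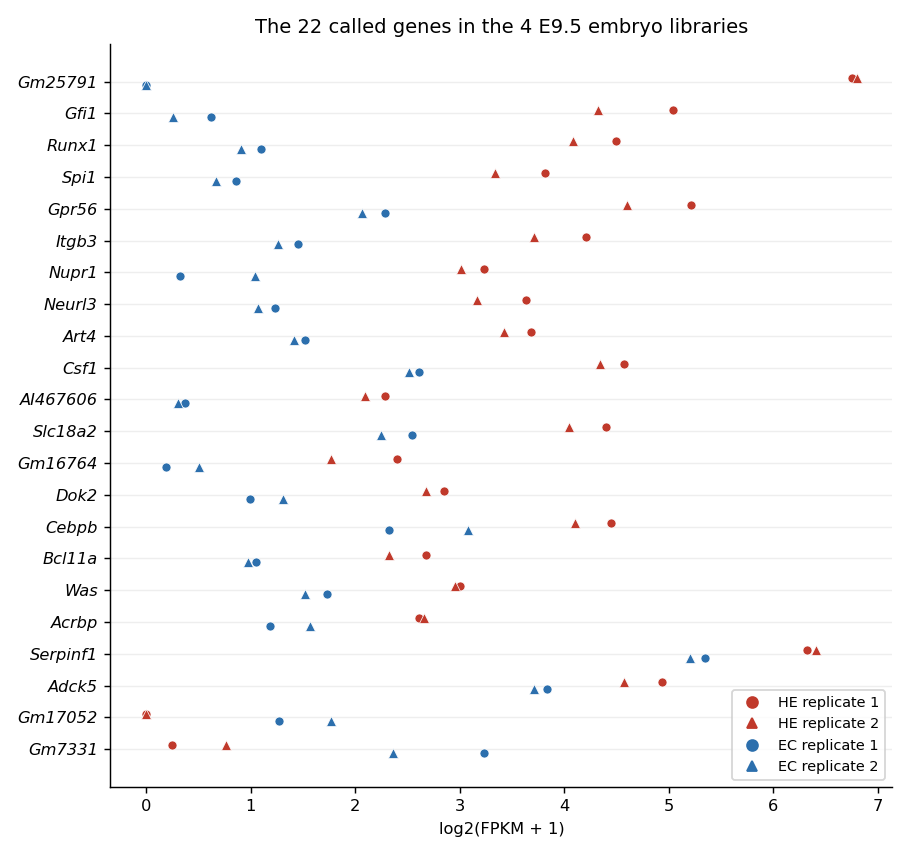
log2(FPKM + 1) of the 22 called genes in the 2 HE libraries (red) and 2 EC libraries (blue) of the E9.5 embryo, circles for replicate 1 and triangles for replicate 2, ordered by difference. HE values lie to the right of EC values in 20 genes, with HE replicate 1 above HE replicate 2 in most, and to the left in Gm17052 and Gm7331.

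The count of 22 rested on few libraries. Leaving out 1 library at a time gave 5 to 35 called genes: 5 without EC replicate 1, 6 without EC replicate 2, 5 without HE replicate 1, 16 without HE replicate 2, and 35 without either E10.5 yolk sac library with the HE label. Runx1, Gfi1 and Csf1 passed in all 16 of these fits. Bcl11a, Acrbp and Adck5 passed in 2 of 16, Gm7331 in 4, Cebpb in 5, Slc18a2 in 8 and Serpinf1 in 10, with adjusted p-values by limma up to 0.601. The other 12 called genes passed in 12 to 14 and were lost mainly without one of the 4 E9.5 embryo libraries. Among these 12, Gm17052 and Gm16764 were tested in only 14 of the 16 fits, since they did not reach the FPKM minimum in the rest. When replicate numbers were taken to pair HE and EC within each stage and site, 8 of the 22 passed. Itgb3, Gpr56, Dok2, Was and Serpinf1 were among those that did not.

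Among genes with a symbol of their own, the largest differences that did not pass are given as values. Gene models with Gm or Rik names were left aside, but 2 of them, named after their values were seen, also had large differences. The small nucleolar RNA Gm24888 had 187 and 122 FPKM in HE and was listed at 0 in both EC libraries. Gm22486, of the same class, was listed at 0 in both HE libraries, against 56.9 and 44.3 FPKM in EC. March3, a ubiquitin ligase gene, had 7.58 and 5.21 FPKM in HE, against 0.729 and 1.25 FPKM in EC (adjusted p = 0.0817, limma). Sfrp2, a secreted modulator of Wnt signalling, had 39.1 and 26.3 FPKM in HE, against 11.0 and 9.49 FPKM in EC (adjusted p = 0.0665, limma). Both had no overlap between the groups. BC053749, Tmem191c, Sap25, AI480526, Arntl2, Gfi1b and the pseudogene Rps15a-ps6 also stood higher in both HE libraries, with differences of 1.5 to 1.9. Snora61 and Mir1949 had 56.5 and 149 FPKM and 10.7 and 38 FPKM in HE, and both were at or near 0 in EC; Snora16a differed by 1.68. In the other direction, Fggy, a carbohydrate kinase gene, had 5.44 and 6.0 FPKM in HE, against 24.5 and 17.6 FPKM in EC (adjusted p = 0.366, limma). The germ cell and pluripotency genes Dppa5a and Pou5f1 are described below. The other 9 are small nucleolar RNAs (Snora78, AF357399, Snord15b) and genes named as ribosomal protein pseudogenes (Rpsa-ps2, Rps16-ps2, Rpl35a-ps2, Rps27a-ps2, Rps6-ps4, Rpl9-ps6). Of these, Rpl9-ps6 is annotated as protein-coding.

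The same genes were then read in the other settings, each of which has its own HE and EC libraries. In the E10.5 embryo 29 of 13955 genes passed (0.208%), in the E9.5 yolk sac 2 (0.0143%) and in the E10.5 yolk sac 1335 (9.57%). The 20 genes that rose in the E9.5 embryo had a median difference of 1.87 there, which their choice fixes. In the E10.5 embryo their median was 0.69, with 17 above 0 and 3 called. In the E9.5 yolk sac it was 0.70, with 19 above 0 and none called. In the E10.5 yolk sac it was -0.07, with 7 above 0 and 5 called in either direction. Of those 5 only Csf1 was called higher (1.01). Neurl3 (-1.04), AI467606 (-0.82), Slc18a2 (-1.17) and Serpinf1 (-0.73) were called lower there. The median over all 12333 genes was between 0.01 and 0.02 in each of the 4 settings.

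Runx1 had 3.74 and 3.13 FPKM in E10.5 embryo HE, against 0.805 and 0.956 FPKM in EC (1.24, adjusted p = 0.0464, limma). In the E9.5 yolk sac it had 5.81 and 8.10 FPKM in HE, against 2.37 and 2.09 FPKM in EC (1.29, adjusted p = 0.13, limma). In the E10.5 yolk sac the libraries labelled HE had 2.19 and 2.17 FPKM, against 2.60 and 2.04 FPKM in EC, so there the sort gene did not separate the labels. Gfi1 had 9.42 and 4.21 FPKM in E10.5 embryo HE, against 0.498 and 0.361 FPKM in EC. It had 2.06 and 2.38 FPKM in E9.5 yolk sac HE, against 0.354 and 0.0382 FPKM in EC. It was at 0.142 and 0 FPKM in the libraries with the HE label of the E10.5 yolk sac, against 0 and 0.390 FPKM in EC. Dok2, with 6.63 and 4.83 FPKM in E10.5 embryo HE against 1.36 and 1.36 FPKM in EC, was the third gene called in both embryo stages (adjusted p = 0.0289 at E10.5, limma). Csf1 was high in more than one place: its EC level was 5.11 and 4.73 FPKM in the E9.5 embryo and 14.6 and 14.1 FPKM in the E9.5 yolk sac, where HE had 16.8 and 17.3 FPKM.

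**Figure D3:**
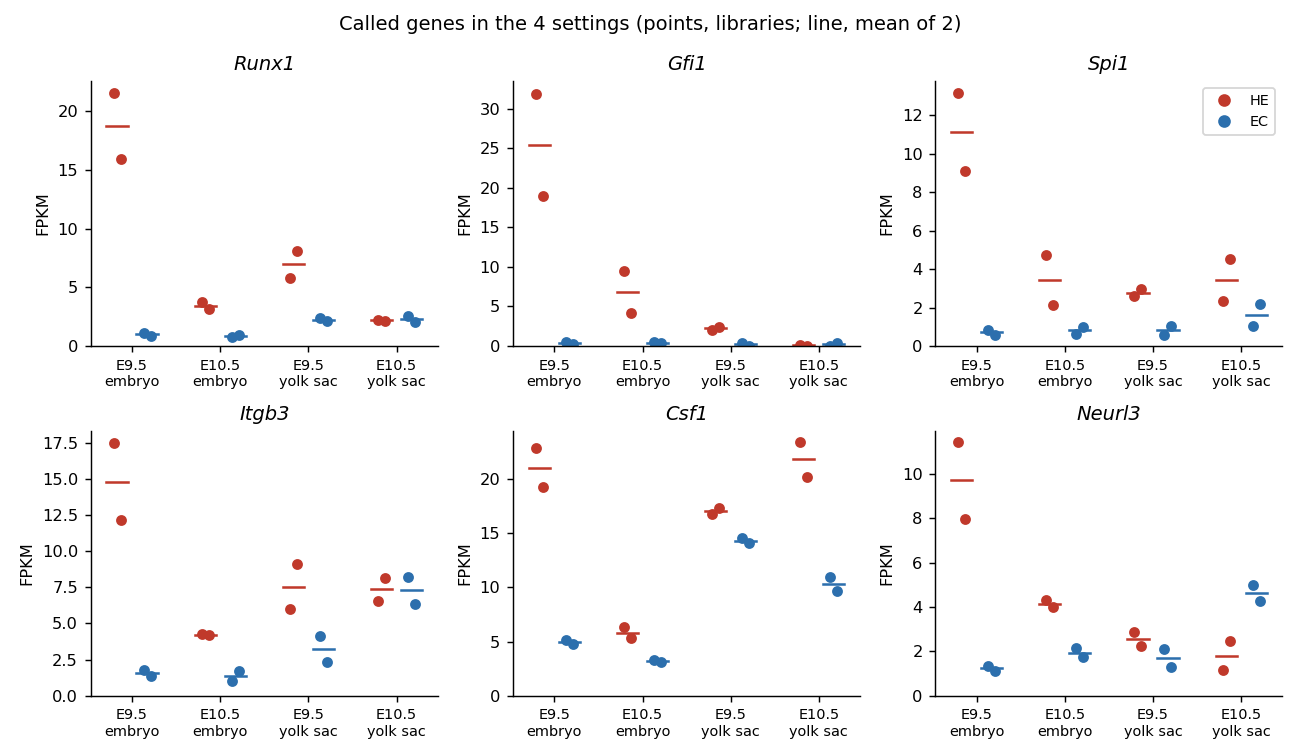
FPKM of 6 called genes in HE (red, left) and EC (blue, right) libraries of the 4 settings; points are libraries and lines the mean of 2. The E9.5 embryo HE libraries are the highest of all 16 for Runx1, Gfi1, Spi1, Itgb3 and Neurl3, but not for Csf1, which reached 23.4 FPKM in an E10.5 yolk sac library with the HE label.

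Whether the HE to EC difference itself differed between settings was tested as an interaction, whose E9.5 embryo libraries are shared by all 3 tests. Against the E10.5 embryo 3 of 13955 genes passed (0.0215%), and Gm25791 was the only one among the 12333; none of the named regulators passed. Against the E9.5 yolk sac no gene passed (0.0%; 529 genes had an unadjusted p under 0.05, limma). Against the E10.5 yolk sac 28 passed (0.201%), of which 27 were among the 12333 genes, 26 with the larger difference in the E9.5 embryo. They held 10 of the 22 called genes, Runx1 (3.34), Gfi1 (4.38) and Itgb3 (2.59) among them. These values rest on the libraries with the HE label of the E10.5 yolk sac, which Runx1 does not set apart from EC and in which Pecam1 was at 47.6 and 12.6 FPKM, against 165 and 138 FPKM in EC. The count of 28 became 765 without replicate 1 of those 2 libraries and 7 without replicate 2, 51 without either E9.5 yolk sac HE library, and 6 to 10 without any 1 of the 10 libraries of the E9.5 embryo, the E10.5 embryo and E10.5 yolk sac EC.

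Blood transcription factors, read from a list of 28 symbols of which 22 were members, had the highest median of the lists as deposited. Both HE libraries lay above both EC libraries in 18 of 22 and below in 2, against 31.2% above and 27.2% below over all 12333 genes, and the median difference was 0.91, against 0.02. The erythroid list was close behind at 0.86, and under quantile normalization it came first, at 0.92, against 0.85 for blood transcription factors. The 5 called genes of the list are Gfi1, Runx1, Spi1, Cebpb and Bcl11a, against 0.162% of all 12333 genes called higher. Runx1, whose rise the sort fixed, is counted in these numbers and in the medians of this list. Myb, a factor of definitive blood progenitors, had 2.43 and 1.39 FPKM in HE, against 0.197 and 0.153 FPKM in EC. Meis1, a Hox cofactor of blood stem cells, had 28.9 and 26.7 FPKM in HE, against 15.1 and 12.7 FPKM in EC, and Gata2, required in hemogenic endothelium, 32.0 and 26.9 FPKM in HE, against 19.0 and 15.4 FPKM in EC. None of these 3 passed, but their groups did not overlap. Gfi1b, Gata1 and Nfe2, which red-cell precursors also express, were lowest in EC replicate 1, as was the red-cell RNA: Gata1 had 6.08 and 4.38 FPKM in HE, against 0.651 FPKM in EC replicate 1 and 3.92 FPKM in EC replicate 2, and the part of that RNA in their differences was not tested. On the other side, Lmo2 had 76.6 and 87.7 FPKM in HE, against 126 and 127 FPKM in EC, and Runx1's partner Cbfb was nearly level at 44.8 and 45.6 FPKM in HE, against 49.9 and 47.5 FPKM in EC.

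The corepressors through which Gfi1 acts showed small differences. None of 9 members passed, and the differences ran from -0.08 to 0.43. In both HE libraries 4 lay above EC and 2 below, against 31.2% and 27.2% of all 12333 genes. Kdm1a, the histone demethylase of the complex, had 64.3 and 66.5 FPKM in HE, against 65.9 and 64.1 FPKM in EC. Rcor1, its scaffold, had 15.3 and 12.2 FPKM in HE, against 11.1 and 10.1 FPKM in EC.

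Genes of mature blood cells were mixed. Of 17 blood actin and signalling genes that were members, Dok2 and Was rose, against 0.162% of all 12333 genes called higher. In both HE libraries 8 of the 17 lay above EC and 7 below, against 31.2% and 27.2% of all genes. The median was 0.22, or 0.06 under quantile normalization and 0.20 under median ratio scaling. Coro1a, an actin-binding protein of leukocytes, had 15.3 and 9.81 FPKM in HE, against 5.40 and 3.34 FPKM in EC, and the hyaluronan receptor Cd44 14.9 and 13.7 FPKM in HE, against 5.61 and 6.72 FPKM in EC. Lcp1, another actin-bundling gene of leukocytes, stood the other way at 36.3 and 42.5 FPKM in HE, against 61.2 and 55.7 FPKM in EC. Of 10 platelet and megakaryocyte genes Itgb3 alone passed, 7 lay above EC and 3 below. Pf4 had 4.21 and 4.84 FPKM in HE, against 0.685 and 2.33 FPKM in EC, while Clec1b, a platelet receptor for podoplanin that EC also held, had 21.6 and 36.3 FPKM in HE, against 69.5 and 67.7 FPKM in EC. Of 12 cytokine receptor genes none passed, 5 lay above EC in both HE libraries and 1 below.

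Macrophage and red-cell markers were read for cells that the gates should leave out. Of 21 macrophage and myeloid genes in the table only 6 were members, 5 were listed at 0 in all 4 libraries, and the summed level of the 21 was 13.0 and 14.8 FPKM in HE, against 10.2 and 10.8 FPKM in EC. Of the 6 members 3 lay above EC in both HE libraries and none below, against 31.2% and 27.2% of all 12333 genes. Fcgr3, an Fc receptor gene, had 2.84 and 2.97 FPKM in HE, against 1.10 and 0.712 FPKM in EC, and Fcer1g and Prtn3 were the others. Csf1r, C1qa and Tyrobp did not reach the FPKM minimum, nor did Lyz2, at 1.74 and 0.786 FPKM in HE, against 0.181 and 0.306 FPKM in EC. The part of such cells in the blood gene values was not tested. None of the 20 erythroid members passed, 4 lay above EC in both HE libraries, none below, and 16 overlapped, with all 20 differences above 0. Hbb-bh1, an embryonic globin, had the same split as the list sum, with EC replicate 1 below the other 3 libraries. In bulk samples, fewer cells of a type and less RNA per cell cannot be told apart.

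Arterial and venous genes leaned to opposite sides without passing the test. Of 19 arterial members 14 lay above EC in both HE libraries and 2 below, against 31.2% and 27.2% of all 12333 genes, with a median difference of 0.42. Of 15 venous, sinusoidal and lymphatic members none lay above and 11 below, with a median of -0.43. Gja5, a gap junction gene of arterial endothelium, had 85.6 and 90.6 FPKM in HE, against 41.7 and 45.5 FPKM in EC. Hey1, a Notch target, had 61.6 and 61.2 FPKM in HE, against 42.1 and 31.7 FPKM in EC, and Efnb2, the ephrin that marks arteries, 82.6 and 74.7 FPKM in HE, against 49.8 and 43.9 FPKM in EC. Adjusted p-values by limma were 0.561, 0.52 and 0.631, and in none of the 3 genes did HE and EC overlap. These p-values also draw on spread outside the E9.5 embryo. Gja5, for example, had 30.6 and 11.3 FPKM in the E10.5 yolk sac libraries with the HE label. Under 15 other settings of the fit, however, Gja5 passed in 1, and Hey1 and Efnb2 in 0. Those settings include the 4 E9.5 embryo libraries alone and the fit without both of those yolk sac libraries. Why these genes did not pass was not tested. On the other side Gpr182, a sinusoidal and lymphatic receptor gene, had 5.40 and 9.34 FPKM in HE, against 14.9 and 25.4 FPKM in EC, and Stab2, a scavenger receptor, 2.32 and 4.21 FPKM in HE, against 5.32 and 15.4 FPKM in EC. Aplnr, the apelin receptor of veins, had 82.2 and 110 FPKM in HE, against 163 and 149 FPKM in EC. Nr2f2, the regulator of venous fate, overlapped at 16.1 and 14.2 FPKM in HE, against 17.3 and 13.5 FPKM in EC.

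**Figure D4:**
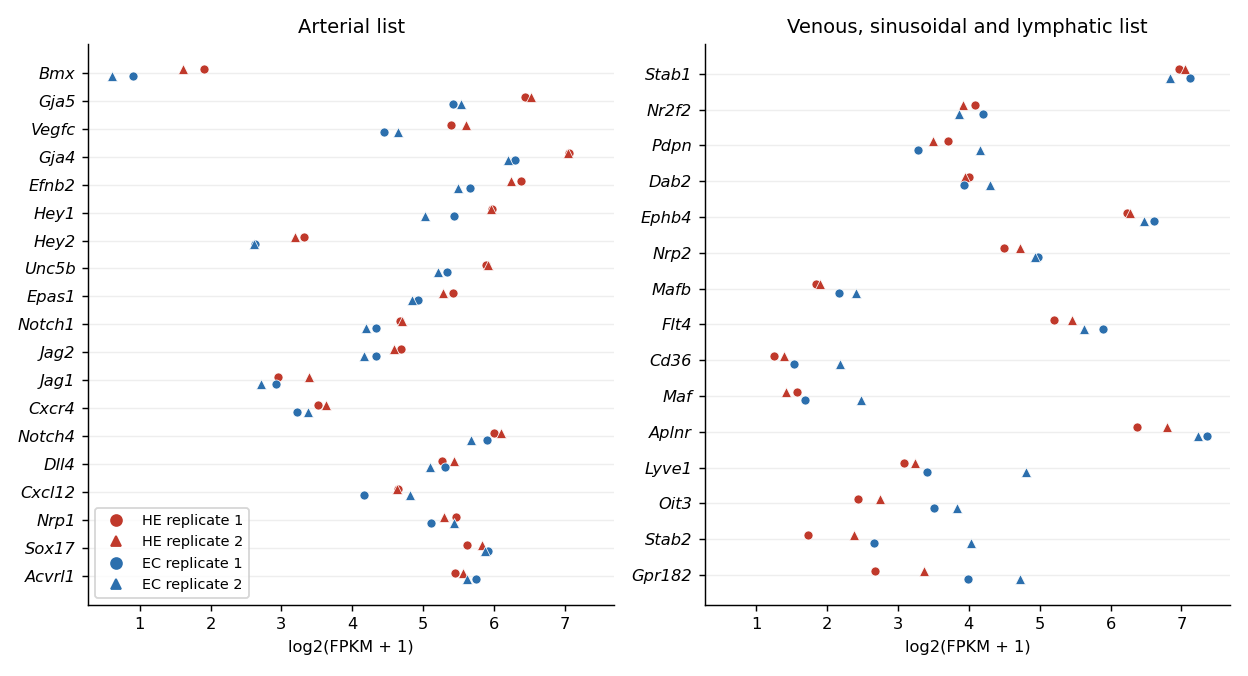
log2(FPKM + 1) of the arterial list members (left, 19 genes) and the venous, sinusoidal and lymphatic list members (right, 15 genes) in HE (red) and EC (blue) libraries, circles for replicate 1 and triangles for replicate 2. Most red points lie right of blue ones on the left panel and left of them on the right panel. The differences run from -1.33 for Gpr182 to 1.00 for Bmx.

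The same lists were read in the other settings, without a test between medians. The median over the 19 arterial genes was 0.10 in the E10.5 embryo, -0.64 in the E9.5 yolk sac and -1.38 in the E10.5 yolk sac. The median over the 32 general endothelial genes was -0.23, -0.92 and -2.46 in the same settings, so it too was lower in the yolk sacs. Gja5 had a difference of 1.00 in the E9.5 embryo and -1.02 in the E9.5 yolk sac, and its interaction did not pass (adjusted p = 1.0, limma). The venous list was below 0 in all 4 settings, at -0.27, -0.81 and -2.16 in the other 3.

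Notch genes overlap the arterial list in part. Of 23 members none passed, 16 lay above EC in both HE libraries and none below, against 31.2% and 27.2% of all genes, with a median of 0.39. Hes5, a Notch target, had 4.57 and 3.92 FPKM in HE, against 1.49 and 1.74 FPKM in EC, and the receptor Notch3 14.6 and 13.8 FPKM in HE, against 9.09 and 7.54 FPKM in EC. The ligand Dll4, the glycosyltransferase Mfng and the target Hes1 overlapped between the groups. Hes1 had 33.4 and 49.7 FPKM in HE, against 39.7 and 41.6 FPKM in EC.

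General endothelial genes stayed high in HE. All 32 of the list were members and none passed. In both HE libraries 6 lay above EC and 18 below, against 31.2% and 27.2% of all 12333 genes. The median was -0.19 and the largest distance -0.75. Under quantile normalization 8 lay above and 12 below, with a median of -0.05. Under median ratio scaling 6 lay above and 19 below, with a median of -0.23. Cdh5, the endothelial cadherin, had 317 and 337 FPKM in HE, against 337 and 285 FPKM in EC, with overlap. Cd34 had 198 and 236 FPKM in HE, against 326 and 301 FPKM in EC, and Kdr, the main VEGF receptor, 87.2 and 104 FPKM in HE, against 145 and 125 FPKM in EC. Robo4, a guidance receptor of vessels, had the largest distance, at 14.2 and 16.2 FPKM in HE, against 27.2 and 25.1 FPKM in EC. Of 10 flow-response genes 6 lay below EC in both HE libraries and 1 above. Of 14 endothelial-to-mesenchymal factors 5 lay below and 2 above, and Fn1 was the farthest, at 291 and 259 FPKM in HE, against 133 and 147 FPKM in EC (adjusted p = 0.225, limma).

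Basement membrane and matrix genes leaned up. Of 24 members 17 lay above EC in both HE libraries and 2 below, against 31.2% and 27.2% of all 12333 genes. The median was 0.49, with no call. Lama5, the laminin α5 chain, had 38.9 and 36.5 FPKM in HE, against 16.5 and 10.7 FPKM in EC (adjusted p = 0.198, limma). Agrn, which encodes agrin, had 96.3 and 104 FPKM in HE, against 68.2 and 52.0 FPKM in EC. Col4a1 and Col4a2, the main collagens of the vessel basement membrane, overlapped. Mesenchyme and somite genes did not follow them as a list, with 7 of 21 above, 1 below and 13 overlapping, and fibroblast genes such as Postn, at 240 and 134 FPKM in HE, against 160 and 464 FPKM in EC, were highest in EC replicate 2. The somite gene Meox1, at 18.1 and 13.6 FPKM in HE, against 7.83 and 4.11 FPKM in EC, and the basement membrane gene Frem2, at 13.2 and 16.5 FPKM in HE, against 8.61 and 4.92 FPKM in EC, were above in both HE libraries. Muscle genes had 4 of 10 above and none below, and neural genes 7 of 11 above and 2 below. Of 17 endoderm and epithelial genes 5 were above, none below and 12 overlapped, with the epithelial cadherin Cdh1 at 17.2 and 22 FPKM in HE, against 10.6 and 9.46 FPKM in EC. The shares above of the mesenchyme (33.3%), muscle (40.0%) and endoderm (29.4%) lists were not far from that of all genes. Their shares below were smaller, at 4.76%, 0.0% and 0.0%, against 27.2% of all genes. The neural list had 63.6% above and 18.2% below, so these lists leaned toward HE where the groups did not overlap. The part of these other cell types in the matrix values was not tested.

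Hox genes, which record position along the body axis, gave 20 of 31 above and 1 below, against 31.2% and 27.2% of all 12333 genes. Their median was 0.32 (0.21 under quantile normalization, 0.28 under median ratio scaling), with no call. Hoxa9, also a blood stem cell gene, had 28.7 and 27.8 FPKM in HE, against 14.5 and 11.1 FPKM in EC (1.09, adjusted p = 0.211 by limma). Hoxb4 to Hoxb8 overlapped without exception, as Hoxb8 did at 35.2 and 28.4 FPKM in HE, against 30.4 and 30.8 FPKM in EC.

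Germ cell and pluripotency genes gave the lowest median, -0.74 over 12 members, and none passed. In both HE libraries 8 lay below EC and 2 above, against 27.2% and 31.2% of all 12333 genes. Pou5f1, the pluripotency factor that germ cells keep, had 0.378 and 1.65 FPKM in HE, against 7.10 and 8.65 FPKM in EC (-2.21 ± 0.42, adjusted p = 0.0817 by limma). Dppa5a had 0 and 1.38 FPKM in HE, against 6.32 and 7.07 FPKM in EC (adjusted p = 0.0665, limma), and Dppa3 0.529 and 0.762 FPKM in HE, against 3.57 and 5.83 FPKM in EC. Each of these genes separates the groups, at a level far under that of endothelial genes. At E10.5 in the embryo the same contrast was called for Pou5f1 (-2.71, adjusted p = 0.0262, limma) and Dppa5a (-2.79, adjusted p = 0.0232, limma). Ifitm3, which many other cells also express, stood the other way at 73.8 and 59.9 FPKM in HE, against 54.9 and 52.9 FPKM in EC.

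**Figure D5:**
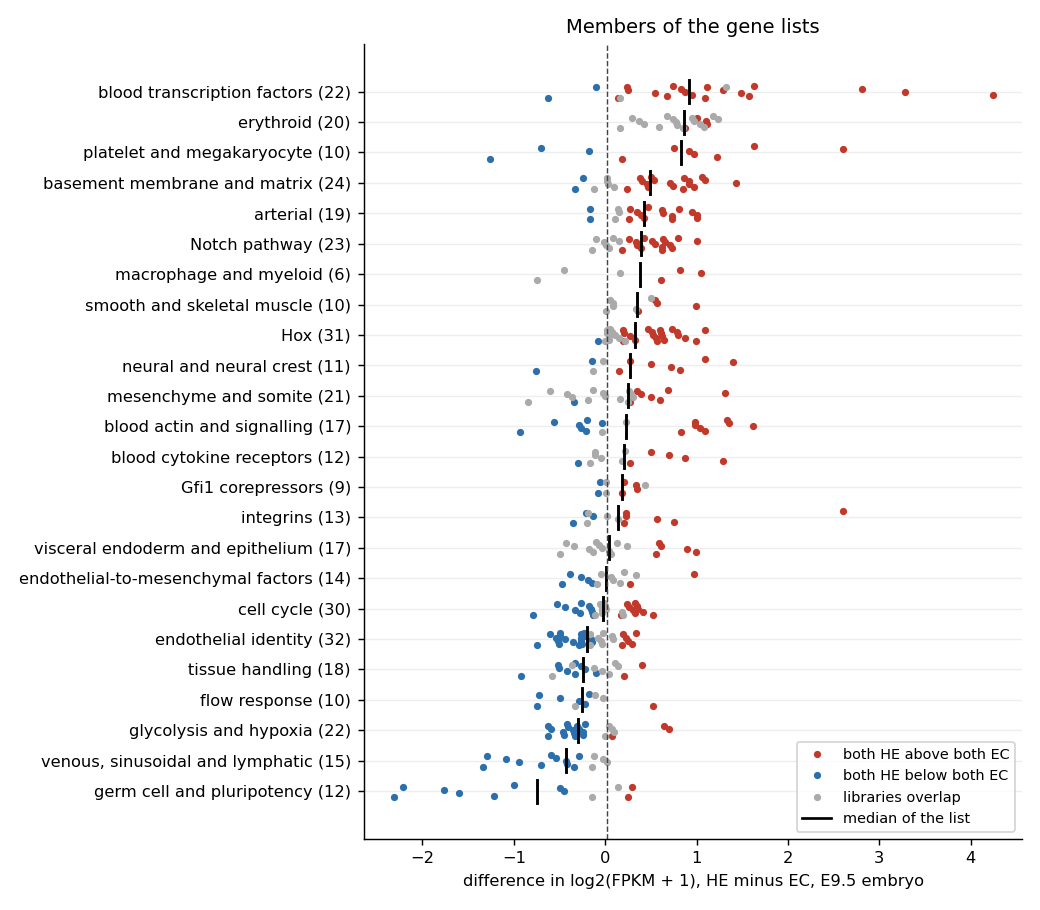
Difference between HE and EC in log2(FPKM + 1), HE minus EC, for each member of the gene lists, ordered by the list median (black bar; number of members in brackets). Red points lie above EC in both HE libraries, blue points below in both, grey points overlap, and the dashed line is the median of all 12333 genes. As deposited, blood transcription factors have the highest median (0.91), ahead of erythroid genes (0.86; that order turns under quantile normalization), and germ cell and pluripotency genes the lowest (-0.74).

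Glycolysis and hypoxia genes leaned down in the deposited values. Of 22 glycolysis and hypoxia genes 15 lay below EC in both HE libraries and 3 above, against 27.2% and 31.2% of all 12333 genes. Their median was -0.30, with no call. Ldha, lactate dehydrogenase A, had 1660 and 1871 FPKM in HE, against 2746 and 2706 FPKM in EC, and the lactate transporter Slc16a3 224 and 218 FPKM in HE, against 334 and 347 FPKM in EC. Cell cycle genes were even, with 10 of 30 above, 10 below and 10 overlapping. Under quantile normalization 12 were above and 7 below, and under median ratio scaling 10 above and 13 below. Within them Ccnd1, cyclin D1, had 44.3 and 48.3 FPKM in HE, against 83.1 and 77.9 FPKM in EC (adjusted p = 0.122, limma), and Aurkb, a mitotic kinase, 80.3 and 69.5 FPKM in HE, against 52.1 and 51.3 FPKM in EC. Genes that rise on tissue handling were below in 9 of 18 and above in 2, with a median of -0.24. Under quantile normalization they were below in 6 and above in 1, with a median of -0.09. Under median ratio scaling they were below in 9 and above in 2, with a median of -0.28. The stress factor Atf3 had 17.4 and 19.8 FPKM in HE, against 33.0 and 39.3 FPKM in EC.

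Ribosomal protein genes, a group chosen after its values were seen, lay below EC in 78 of 80 members and above in none, with a median of -0.34. Over all 12333 genes 27.2% lay below and 31.2% above. All 83 in the table summed to 112500 and 127000 FPKM in HE, against 148400 and 155200 FPKM in EC. Under quantile normalization 29 of the 80 lay below and 6 above, with a median of -0.07. Under median ratio scaling 78 lay below and none above, with a median of -0.38. The size of this lean thus depended on which scaling was used. FPKM shares 1 total per library. The glycolysis median was -0.12 under quantile normalization and -0.34 under median ratio scaling. Processed pseudogenes, likewise chosen after their values were seen, lay below EC in 145 of 252 and above in 18, with a median of -0.45. Of 39 members named as ribosomal protein pseudogenes, which share sequence with those genes, 24 lay below and 4 above.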

How the data were processed

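The authors deposited 1 table of FPKM for 33531 gene symbols and 16 libraries. Per the submitters' processing notes, Cufflinks, featureCounts and the build mm9 were used, with no versions or roles stated. The sources used here give neither aligner, annotation, strand nor multi-mapping, nor which libraries were sorted into which buffer. Values were used as deposited and transformed as log2(FPKM + 1). Genes at 1 FPKM in at least 2 of 16 libraries (13955) were fitted with limma 3.58.1 in R 4.3.3, 1 mean per group over 8 groups, with an intensity trend (residual degrees of freedom 8, prior 3.68), and adjusted by Benjamini-Hochberg at 0.05. The fit was tested on simulated data. FPKM was transformed before the test, so all differences are log2 values of the deposited FPKM plus 1.

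The E9.5 embryo contrast, the other 3 settings and 3 interactions were taken from this fit. The text names the sort genes, every called gene, the 12 largest uncalled differences each way at a mean of 5 FPKM or more in the higher group with no overlap between groups (Gm and Rik models left aside), and members of 25 lists. Members, lists and tests were chosen with earlier results of these data known. Biotypes came from GENCODE M21 by symbol (32876 matched); neighbours are by that annotation, on GRCm38, and start-site windows are RefSeq's. Of the 12333 genes, 13 were listed at 0 in some of the 4 libraries and high in others, 5 of them protein-coding; Pabpc4 was at 0 in HE replicate 2. Such zeros can be failed estimates. Figures used matplotlib 3.10.9. Alternatives are given in the closing section.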

Additional observations from a re-analysis of the deposited data

Results flagged for a closer look

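The differences below are HE-EC differences of the E9.5 embryo minus those of another setting, on the log2(FPKM + 1) scale, and each passed limma's interaction test at an adjusted p of 0.05. Against the E10.5 embryo, Gm25791 differed by 10.43. It was listed at 0 in E9.5 embryo EC and E10.5 embryo HE, so this value depends on the pseudocount and is no bound.

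Against the E10.5 yolk sac, the differences were 3.34 for Runx1, 4.38 for Gfi1, 2.59 for Itgb3, 3.29 for Neurl3, 2.67 for AI467606, 2.99 for Slc18a2, 1.90 for Acrbp, 1.82 for Serpinf1 and 1.38 for Adck5, all genes that rose in the E9.5 embryo. Gm17052 differed by -1.52 and is listed at 0 in all 12 libraries outside the E9.5 embryo. Among genes not called in the E9.5 embryo, Itga2b differed by 2.75, Cd44 by 1.96, AU021092 by 4.29, Mylpf by 3.93 and Nrg1 by 3.30. Itga2b, which encodes CD41, had 10.7 and 8.12 FPKM in E10.5 yolk sac libraries with the HE label, against 42.1 and 38.6 FPKM in EC. Nrg1, a growth factor gene, had 3.64 and 4.13 FPKM in E9.5 embryo HE, against 0.934 and 1.05 FPKM in EC, and 1.26 and 0.444 FPKM in E10.5 yolk sac libraries with the HE label, against 7.43 and 5.22 FPKM in EC. Col1a1 differed by 10.52, and that value rests on its listing at 0 in both E10.5 yolk sac libraries with the HE label, against 1817 and 1190 FPKM in EC. In the E9.5 embryo Col1a1 overlapped, at 480 and 319 FPKM in HE, against 249 and 619 FPKM in EC. All of these rest on the E10.5 yolk sac libraries with the HE label, which Runx1 does not separate from EC.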

How the results depend on the processing

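The count of 22 calls in the E9.5 embryo stayed within 1.5 times under 9 other settings, which gave 17 to 28 genes, though not always the same ones: pseudocounts of 0.1 and 0.5, a filter in the 4 libraries compared or at 5 FPKM, median ratio scaling, quantile normalization, the 4 libraries alone, robust empirical Bayes and, chosen after seeing the data, protein-coding genes only. Of the 22 genes, 16 to 22 were called again in 8 of these, and 10 with the 4 libraries alone. The count was 58 with no filter, 46 with the 8 embryo libraries, 35 without both E10.5 yolk sac libraries labelled HE and 586 with library quality weights. Against the E10.5 embryo, 3 interaction calls became 27 with no filter, 1 with the filter in the 4 libraries, 5 with the 8 embryo libraries and 0 with protein-coding genes. Against the E9.5 yolk sac, 0 became 6 with no filter and 1 with quality weights. Against the E10.5 yolk sac, 28 became 15 at 5 FPKM, 12 with quality weights and 56 with protein-coding genes. The causes were not tested.

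Leaving out 1 library at a time gave 5 to 35 calls in the E9.5 embryo, and 2 to 6, 0 to 3 and 6 to 765 in these interactions. Replicate numbers were not taken to pair the libraries, since not every pair correlated above 0.1: replicate 1 minus 2 of HE and EC correlated with r = 0.0114 in the E9.5 embryo, 0.101 in the E10.5 embryo, 0.38 in the E9.5 yolk sac and 0.177 in the E10.5 yolk sac, and 8 of all 28 pairs of groups were above 0.1 (range -0.261 to 0.38). A few genes did split by number in the E9.5 embryo, as Apoa1 did. With a replicate block over all libraries 18 genes were called, and 163 in the E10.5 yolk sac interaction. With a replicate block within stage and site the counts were 9, and 0 and 398 in the E10.5 embryo and E10.5 yolk sac interactions.

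In 4003 recomputed values of named genes, 167 lost a call, 58 gained one and 51 uncalled values moved by more than the spread between replicates. No called gene changed sign. Of the uncalled, Postn, Lum and Egr1 did without EC replicate 2, Hba-x without EC replicate 1, Tnnt2 without HE replicate 1, Col1a1 without EC or HE replicate 2, and Col1a1, Pecam1 and Tnnt2 under quantile normalization. With 2 libraries per group and unknown depth, genes near 1 FPKM are limited by counting noise that FPKM does not show.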
